A study of Mus musculus with 304 samples.

Results

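The 34 genes described here are interferon-stimulated genes, that is, genes whose transcription is raised when a cell senses interferon. They were chosen by name from the 22800 genes of the count table, and all 34 had a row. The choice was made with earlier results of these data known, so shares of them past a fold are descriptions and no independent support. These genes were read in 248 single granule cells of the mouse dentate gyrus, the gateway of the hippocampus. The cytosol of these cells had been drawn into a patch pipette and sequenced (Patch-seq). The study asked how granule cell transcripts differ after kainate, a glutamate receptor agonist that provokes seizures, and after viral overexpression of Id2, a helix-loop-helix protein that binds other transcription factors and lacks a DNA-binding region of its own. The labels give neither strain, age nor animal.

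Control cells (DG, 31 cells used) came from mice that were not injected. Day 1 cells (KA1_DG_ipsi, 58 cells) came from the injected side 1 day after 70 nl of 5 mM kainic acid was injected into the hippocampus. Day 14 cells (Kainate_DG, 29 cells) were taken 14 days after such an injection, and their labels name no side. GFP cells (GFP_Control, 59 cells) and Id2 cells (Id2_OE, 71 cells) were taken 1 month after injection of an adeno-associated virus (AAV) that carried GFP or Id2. The labels name neither the promoter nor the serotype of the virus. The GFP cells are thus the only group that shares an AAV injection with the Id2 cells, and no kainate group shares an injection with the control cells.

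Type I interferons bind the receptor pair Ifnar1 and Ifnar2, whose kinases activate a complex that holds Stat2 and Irf9 and binds the interferon-stimulated response element (ISRE) in the promoters of antiviral genes. Type II interferon acts mainly through a different element, GAS. In the brain microglia, the resident macrophages, are a main site of interferon responses, and neurons hold the receptors too. Many of the products sense foreign nucleic acid, block translation of viral RNA, or attach and remove the ubiquitin-like protein ISG15.

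Sequence around the ISRE is shown because the 34 genes are named for their inducer. RefSeq (build GRCm38.p6) gave promoter windows of 26 of the 34 genes, from 250 bases before the start of transcription onwards. The ISRE core searched was GAAA, any 2 bases, then GAAA, on both strands, so that TTTC, any 2 bases, then TTTC counts as a match. It was found in 9 of the 26 members (34.6%) and in 3.46% of all 27025 promoters in that table. These 9 members were Bst2, Cxcl10, Gbp2, Ifit1, Ifit3, Isg15, Oas1a, Rsad2 and Stat2. The longer form, the core followed directly by CT, was in 6 of the 26 (23.1%) and in 0.255% of all promoters. The GAS letters TTCNNNGAA were in 5 of the 26 (19.2%) and in 8.13% of all promoters. The lines that follow give the core in capitals, 5′ to 3′ along each gene's own strand, with the first capital between 66 and 222 bases before the start. The 2 lines for Ifit1 overlap, and each marks a different match.
Ifit1, chr19:34640770-34640809, plus strand: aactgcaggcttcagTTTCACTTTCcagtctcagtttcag
Ifit1, chr19:34640789-34640828, plus strand: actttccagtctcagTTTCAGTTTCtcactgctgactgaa
Ifit3, chr19:34583358-34583397, plus strand: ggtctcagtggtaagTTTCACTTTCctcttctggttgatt
Ifit3, chr19:34583392-34583431, plus strand: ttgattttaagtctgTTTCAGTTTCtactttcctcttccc
Isg15, chr4:156200860-156200899, minus strand: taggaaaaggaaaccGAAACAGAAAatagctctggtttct
Stat2, chr10:128270261-128270300, plus strand: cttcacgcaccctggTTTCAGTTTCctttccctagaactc
Rsad2, chr12:26456548-26456587, minus strand: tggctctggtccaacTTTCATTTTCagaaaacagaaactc
Cxcl10, chr5:92349078-92349117, minus strand: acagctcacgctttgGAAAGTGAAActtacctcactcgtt
Bst2, chr8:71537578-71537617, minus strand: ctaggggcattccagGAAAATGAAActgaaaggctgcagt
These are descriptions of letters, and binding was not measured.

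No label names an animal, so each group counts as 1 sample, and the text gives no p-value. A level is CPM, the summed reads of a gene in a group scaled to a common total, with an exact 95% Poisson interval that covers the counting of reads only. Where a number of cells follows a level, the level is that of the whole group and the number counts cells with a read. Shares of cells carry exact 95% Clopper-Pearson intervals, which cover the counting of cells only. A gene counts as measured in a comparison when reads were found in 20% or more of the cells on either side and its level on either side was 5 CPM or more, and it is past the fold at 2-fold or more after 1 CPM is added to both levels. Depth differed: the median was 1738610 reads per cell in control cells and between 3317227 and 7615492 in the other groups, and single cells ranged from 32487 to 27708910. Granule cell markers were present in each group (all 12 had reads, with sums of 1715 to 3804 CPM). The sum of 20 microglia markers was 4374 CPM in control cells, 928 at day 1, 7488 at day 14, 217 in GFP cells and 668 in Id2 cells, and only P2ry12 at day 1 was at 0. T and NK cell markers summed to at most 4.60 CPM in any group. In such samples more microglial RNA taken up by the pipette and more RNA made in the granule cell cannot be told apart from the level alone. The titles of kainate cells (K) and of control cells follow different numbering, so any batch behind the titles and the treatment cannot be told apart. Titles of Id2 and GFP cells fall into the same 2 sets of IDS numbers, called the first and the second set here.

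The 34 genes together were near 0 in most control and GFP cells and present in nearly every day 14 and Id2 cell. Their summed level was 372 CPM in control cells (95% interval 367.6 to 376.8), 201 CPM at day 1 (199.8 to 202.4), 2706 CPM at day 14 (2699 to 2712), 116.2 CPM in GFP cells (114.8 to 117.6) and 2189 CPM in Id2 cells (2184 to 2195). In single cells the lowest, median and highest sums were 0, 4.13 and 4534 CPM in control cells. At day 1 they were 0, 95.8 and 780 CPM, and at day 14 they were 12.5, 1585 and 8657 CPM. They were 0, 19.3 and 1752 CPM in GFP cells, and 0.0791, 1170 and 11678 CPM in Id2 cells. The ranges overlap in all 5 groups, but the medians of the day 14 and Id2 cells lie above every single day 1 cell.

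**Figure D1:**
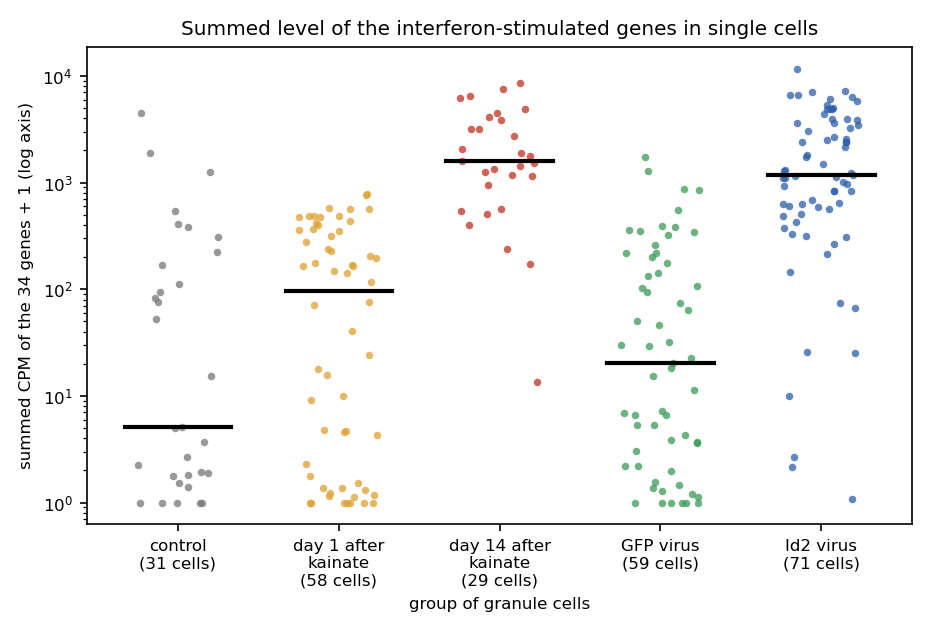
Summed CPM of the 34 interferon-stimulated genes in each cell (1 CPM added, log axis), by group, with 1 point per cell and a black bar at the median. The medians were 4.13 CPM in control, 95.8 at day 1, 1585 at day 14, 19.3 in GFP and 1170 in Id2 cells.

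A sum of at least 100 CPM was found in 28 of 29 cells at day 14 (96.6%, interval 82.2 to 99.9). At day 1 the count was 29 of 58 (50%, 36.6 to 63.4), and without injection it was 10 of 31 (32.3%, 16.7 to 51.4). It was reached by 63 of 71 Id2 cells (88.7%, 79 to 95), against 20 of 59 cells with GFP (33.9%, 22.1 to 47.4). At 1000 CPM the counts were 3 control, 0 day 1, 21 day 14, 2 GFP and 41 Id2 cells. With each cell thinned to 100000 reads, which left out 2 control cells, the median cell held reads of 0 of the 34 genes in control cells, 1 at day 1, 8 at day 14, 1 in GFP cells and 4 in Id2 cells. The highest cell held 9, 6, 29, 4 and 18 of them in the same order. At least 5 of the genes were present in 3 of 29 control, 3 of 58 day 1, 18 of 29 day 14, 0 of 59 GFP and 32 of 71 Id2 cells.

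How far a group's sum rests on few cells differed as well. In control cells 1 cell held 43.1% of all reads of the 34 genes, and 3 cells held 80.4%. The top cell held 11.9% at day 1, 18.2% at day 14, 14.8% in GFP cells and 5.46% in Id2 cells. The number of cells needed for 50% of the reads was 2 in control cells, 8 at day 1, 5 at day 14, 6 in GFP cells and 12 in Id2 cells. Control levels of single members therefore often stand for 1 cell: that share was 99.3% of the reads of Irf7, 90.1% of Eif2ak2, and 100% of Isg15, Oas1a, Oasl2, Trim25 and Cxcl10.

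**Figure D2:**
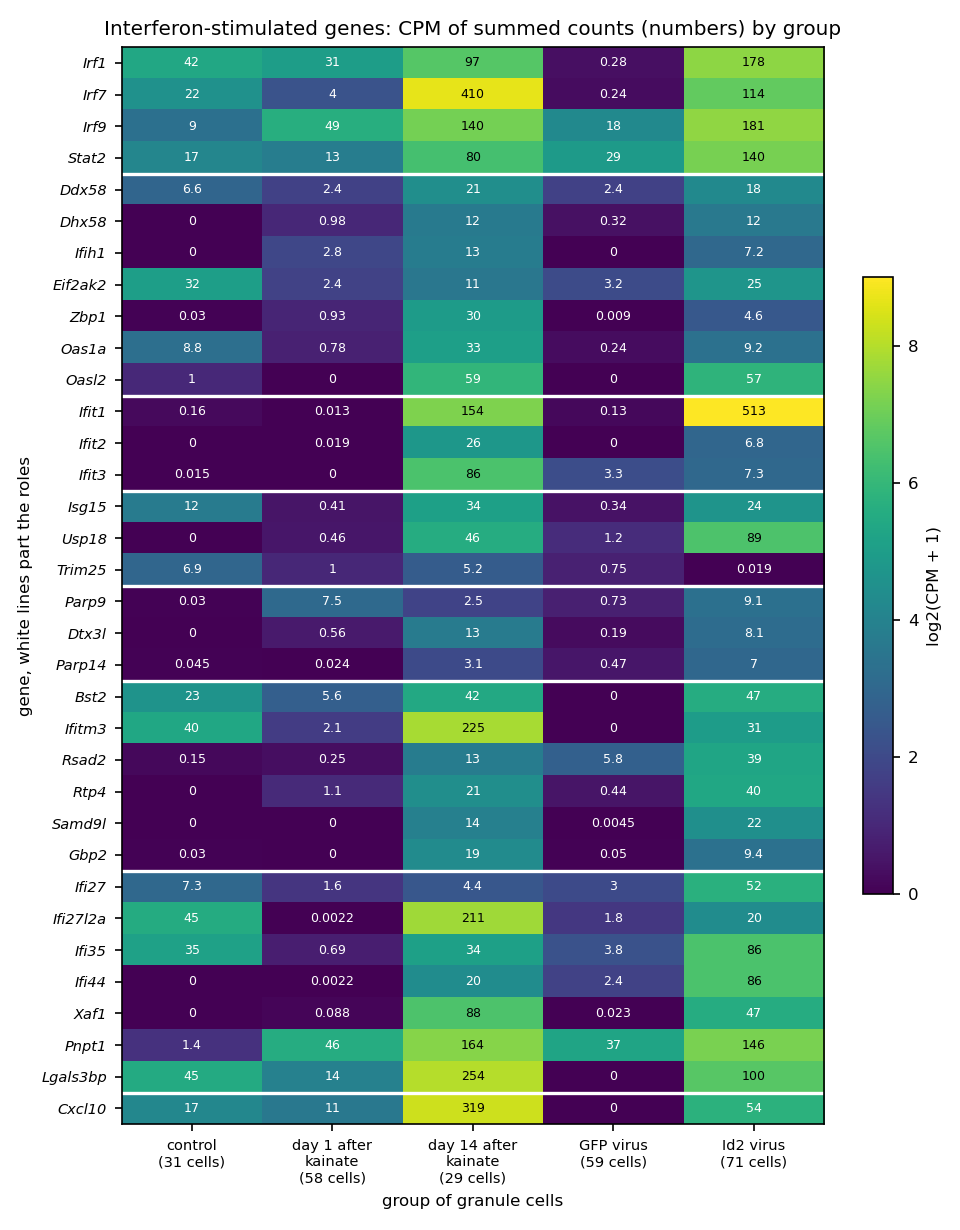
CPM of summed counts of each of the 34 genes (rows, grouped by role, numbers in the cells of the grid) in the 5 groups (columns), with colour as log2(CPM + 1). Colours compare 1 gene across groups and not genes with each other, since levels are not per length. Columns day 14 and Id2 have no gene at 0, against 9 genes at 0 in control, 4 at day 1 and 7 in GFP cells.

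Id2 cells were compared with GFP cells, which share the AAV injection and the time. Of the 34 genes 33 were higher in Id2 cells and 32 were at least 2-fold higher, against 14.9% of the genes of any level with a read in either group. The exceptions were Ifit3 (7.26 against 3.34 CPM) and Trim25 (0.0188 against 0.753 CPM). The median log2 ratio over all 34 was 3.28, and over genes of any level it was -0.0023. Of the 11 members that were measured, 11 were past the fold upward and 0 downward, where 10.2% of all measured genes were past it upward and 12.6% downward. A member can be measured here through the Id2 cells alone, so this second count is no support for the direction. The 34 genes were chosen with earlier results of these data known, so the first count is no independent support either. In the first set of titles (43 Id2 and 43 GFP cells) 31 of the 34 were at least 2-fold higher, and in the second (28 and 16 cells) 28 were.

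All 4 transcription factors of the response were higher in Id2 cells. Irf7, the main amplifier of interferon transcription, was at 113.5 CPM (112.2 to 114.8) in Id2 cells and at 0.243 CPM (0.183 to 0.318) in GFP cells, 466-fold higher. Single Id2 cells ranged from 0 over a median of 0 to 1662 CPM, and single GFP cells from 0 over 0 to 6.05 CPM. Among Id2 cells 40.8% (29.3 to 53.2) had a read of Irf7, and among GFP cells 11.9% (4.91 to 22.9). After thinning these shares were 32.4% and 1.69%. Irf9, the DNA-binding partner of Stat2, stood at 181 against 18.5 CPM, 9.79-fold higher. Its lowest, median and highest cells were at 0, 0.992 and 1525 CPM with Id2 and at 0, 0 and 478.6 CPM with GFP. Stat2 stood at 140.2 against 29.4 CPM, 4.77-fold higher, with reads in 45.1% of Id2 and 25.4% of GFP cells. Irf1, which both interferon types induce, stood at 178.4 against 0.284 CPM, 628-fold higher, and its single cells reached 2481 CPM with Id2 and 63.3 CPM with GFP. For these 4 genes the highest cells were Id2 cells, while cells at 0 were present in both groups. Irf1 and Irf7 share exon sequence with Gm17334 and Phrf1 on the opposite strand, and no source used here gives the counting strand. Irf9 shares exon sequence with Rnf31 on its own strand. Part of the reads of Irf1, Irf7 and Irf9 may thus belong to those neighbours. Among other members, Cxcl10 overlaps Art3, Eif2ak2 overlaps n-R5s29, and Parp9 and Dtx3l overlap each other, all on opposite strands.

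Ifit1, whose protein binds viral RNA that lacks the host's cap methylation, had the largest log2 ratio of the 34 (8.83). It stood at 512.9 CPM (510.1 to 515.6) in Id2 cells and at 0.131 CPM (0.0876 to 0.188) in GFP cells, 3923-fold higher. The lowest, median and highest Id2 cells were at 0, 0.31 and 5258 CPM, and the GFP cells at 0, 0 and 5.91 CPM. Reads were found in 41 of 71 Id2 cells (57.7%, 45.4 to 69.4) and in 14 of 59 GFP cells (23.7%, 13.6 to 36.6), but those GFP cells held 29 reads in all. At 10 CPM or more there were 28 Id2 cells and 0 GFP cells, so above that level the groups did not overlap. The top Id2 cell held 11.1% of the reads. Its relatives Ifit2 (6.85 CPM, 4 Id2 cells, 0 GFP reads) and Ifit3 (7.26 CPM, 3 Id2 cells, against 3.34 CPM from 1 GFP cell) were rare in both groups. Ifit1 and Ifit3 both carry the ISRE core in the windows printed above, and the family's members are alike in sequence, so reads may be split among them.

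The ISG15 system is a tagging pathway in which ISG15 is the tag and Usp18 the protease that removes it and also damps the receptor. Isg15 stood at 24.4 against 0.343 CPM, 71.2-fold higher, with single Id2 cells from 0 over 0 to 202 CPM and single GFP cells from 0 over 0 to 43.9 CPM. It was read in 21 Id2 and 2 GFP cells. Usp18 stood at 89.3 against 1.21 CPM, 73.7-fold higher, with reads in 18 Id2 and 2 GFP cells, of which 1 held 98.9% of the GFP reads. Trim25, a ubiquitin ligase of the RIG-I pathway, was the only member lower in Id2 cells, with 5 reads in 3 cells.

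Of the other measured members, Lgals3bp, a secreted glycoprotein, stood at 98.8 to 101.2 CPM (the 95% interval of its 26611 reads) in 21 Id2 cells. Its reads in GFP cells were 0, and with 3 reads over that group as the floor it was at least 7394-fold higher with Id2. Xaf1, a regulator of apoptosis inhibitors, stood at 46.8 against 0.0225 CPM (2077-fold), with reads in 19 Id2 cells and 5 reads in 3 GFP cells. Ifi27, a mitochondrial protein of the interferon response, stood at 52.2 against 3.04 CPM (17.2-fold), with 17 Id2 cells and 3 GFP cells. Pnpt1, a mitochondrial RNA-degrading enzyme, stood at 145.9 against 37.1 CPM (3.93-fold), but 1 Id2 cell held 66% of its reads and reads were found in 33.8% of Id2 and 27.1% of GFP cells. Without that cell Pnpt1 was 1.39-fold higher. Without the deepest 10% of cells its log2 ratio was 0.90, below the fold, and as a mean over cells it was 0.99.

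The other 23 members were too rarely read to count as measured. Of the 7 sensors of nucleic acid all were at least 2-fold higher in Id2 cells, among them Oasl2 (57.5 CPM in 11 cells against 0 reads) and Eif2ak2, the kinase that halts translation (25.1 against 3.20 CPM in 8 and 5 cells). A single Id2 cell held 91.9% of the reads of Ifih1, whose level thus rests mainly on that cell. For Dhx58, Oas1a and Zbp1 the share in the top Id2 cell was 61.1%, 58% and 57.2%. Of the 6 membrane and antiviral effectors all were at least 2-fold higher, among them Bst2, which tethers budding virus (46.8 CPM in 12 cells against 0 reads), and Rsad2, which makes a chain-terminating nucleotide (38.5 CPM in 11 cells against 5.81 CPM in 2). The top Id2 cell held 62.3% of the reads of Ifitm3 and 62.2% of those of Gbp2. Parp9, its partner ligase Dtx3l, and Parp14, like Parp9 a member of the ADP-ribosyltransferase family, were at 6.997 to 9.09 CPM with Id2 and at 0.194 to 0.726 CPM with GFP. The top Id2 cell held 56.7%, 60.8% and 88.2% of their reads in that order. The chemokine Cxcl10, which draws T cells, stood at 53.7 CPM with Id2 and at 0 reads with GFP, but 1 cell held 94.6% of the reads.

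**Figure D3:**
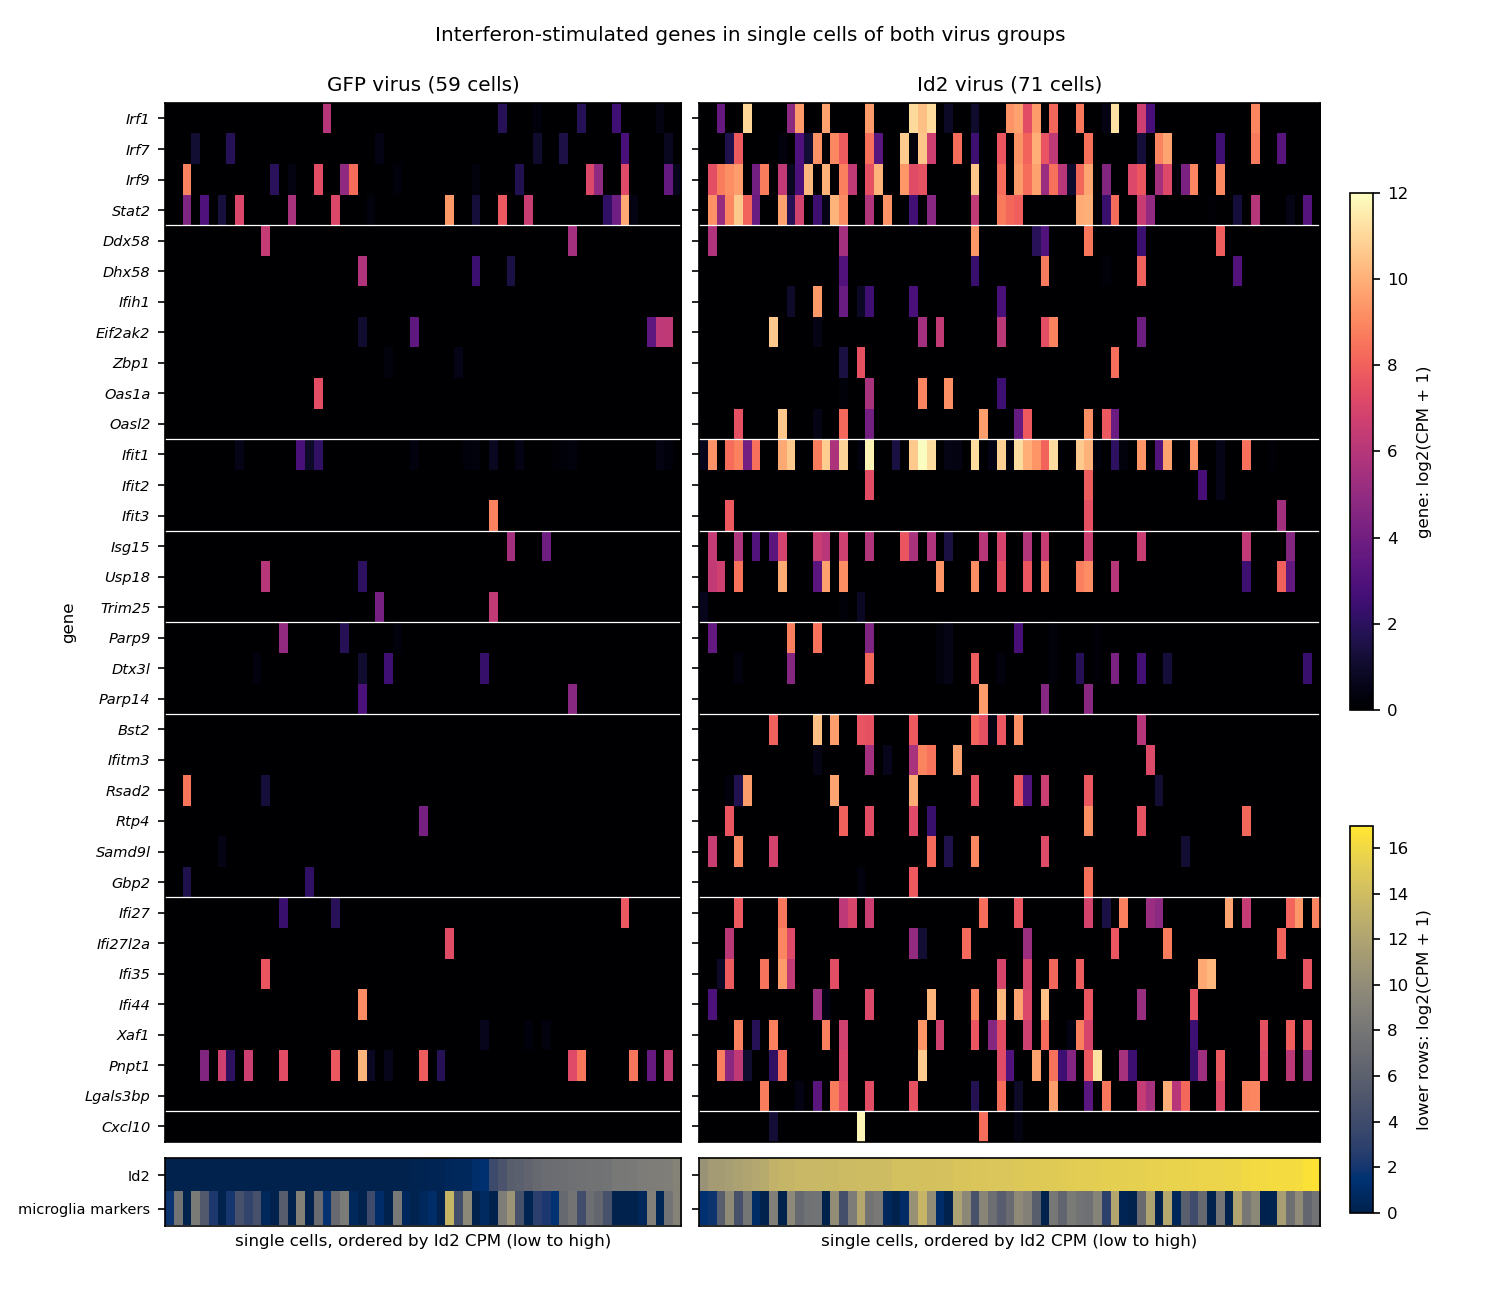
Level (log2(CPM + 1)) of each of the 34 genes (rows) in each GFP cell (left, 59 columns) and Id2 cell (right, 71 columns), cells ordered by Id2 CPM, with Id2 and the sum of 20 microglia markers beneath on a scale of their own. Ifit1 reaches 10 CPM in 28 Id2 cells and in 0 GFP cells, and the right end of the Id2 panel, with the highest Id2 levels, holds fewer bright entries than its middle.

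Id2 itself was at 37369 CPM in Id2 cells, 3.74% of their reads, and at 93.2 CPM in GFP cells. Transcripts of the virus and of the endogenous gene cannot be told apart in the counts. Within the Id2 cells, whose Id2 levels ran from 1446 over a median of 26811 to 105869 CPM, the summed level of the 34 genes did not climb with Id2. Spearman's rho between them was -0.33 over 71 cells, a description without a p since the cells may share animals. It was -0.25 in the first set of titles (43 cells) and -0.37 in the second (28 cells). Id2 itself had a rho of 0.11 with the reads of a cell and of 0.04 with the microglia sum, over the same cells.

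With the Id2 cells sorted by Id2 into 24 low, 24 middle and 23 high cells, the median sum of the 34 genes was 2261, 3052 and 586 CPM in that order. At least 1000 CPM was reached by 18, 16 and 7 of these cells. The median of the 24 low cells, whose median Id2 level was 12744 CPM, thus lay above the highest GFP cell (1752 CPM). Ifit1 stood at 634, 839 and 125.6 CPM in the same order, Stat2 at 316, 136.5 and 9.15 CPM, and Irf9 at 299, 215.6 and 59.3 CPM. Ifi27 (48.1, 21.7 and 82.8 CPM) and Lgals3bp (61.6, 101.4 and 128.2 CPM) did not share that order. Of the 34 members 26 had a rho below 0 with Id2 and 8 above, from -0.32 to 0.18 with a median of -0.12. The share of all genes with a rho below 0 is not given here, so this count cannot be read as particular to the members. The title sets differ in Id2, with medians of 38048 CPM in the first and 21287 CPM in the second.

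Microglial reads were few in most Id2 cells, though more than in GFP cells, and many in most day 14 cells. The lowest, median and highest microglia sums were 0, 161 and 11091.5 CPM in Id2 cells, 0, 3.64 and 10495 CPM in GFP cells, and 0, 3454 and 31655 CPM at day 14. At or above 1000 CPM there were 11 of 71 Id2 cells, 2 of 59 GFP cells and 20 of 29 day 14 cells. The median log2 ratio of the 20 markers, Id2 over GFP cells, was 1.95. Reactive myeloid markers, a list of 12 genes, summed to 330 CPM in Id2 and 36.3 CPM in GFP cells, with a median log2 ratio of 2.51. The median cell was at 0 in both groups, and Lpl, the 1 measured, was lower in Id2 cells (5.22 against 20.8 CPM). In Id2 cells the rho of that sum with the members' sum was 0.19. Over Id2 cells the rho between the members' sum and the microglia sum was 0.25 (71 cells), but 0.59 in the first set of titles and -0.10 in the second, so its sign depends on the title set. At day 14 it was 0.74 (29 cells), in control cells 0.22, at day 1 0.18 and in GFP cells -0.12. The corresponding rho with the reads of a cell was 0.12 in Id2 cells, 0.04 at day 14 and -0.37 in GFP cells. With the sum of granule cell markers it was -0.03 in Id2 cells and -0.10 at day 14.

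**Figure D4:**
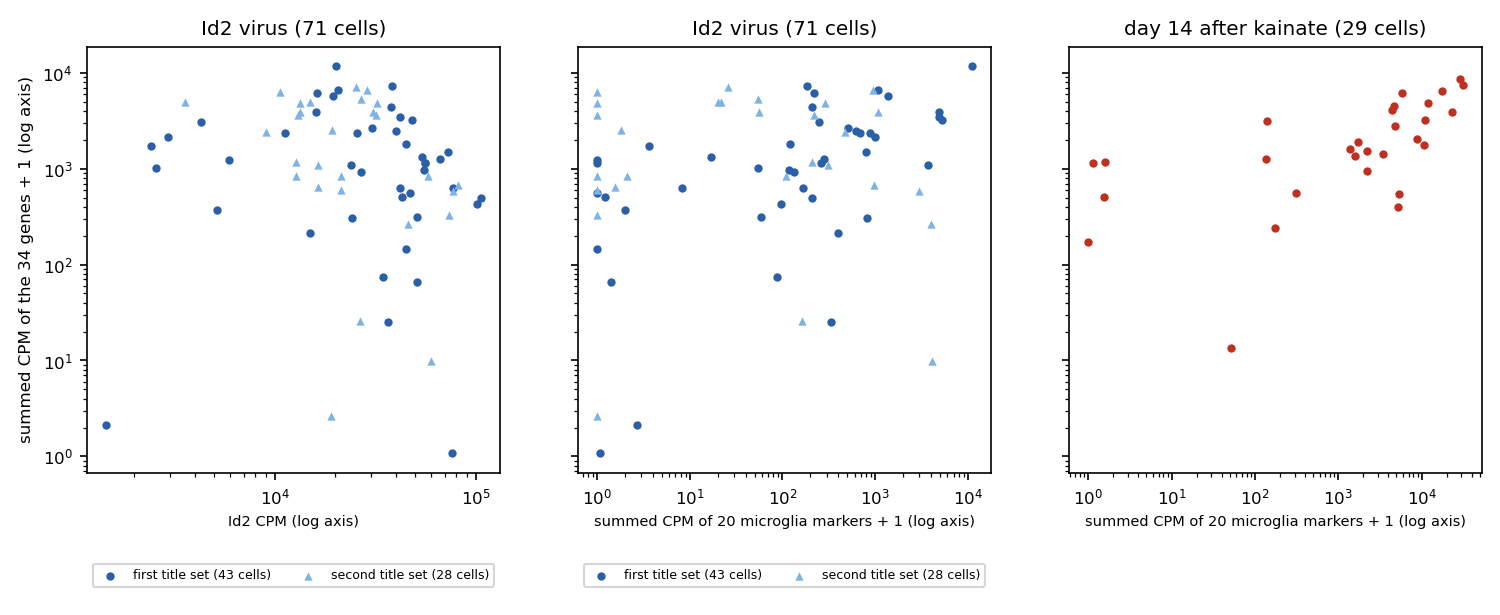
Summed CPM of the 34 genes (vertical, 1 CPM added, log axis) in single cells, against Id2 CPM in Id2 cells (left), against the summed CPM of 20 microglia markers in Id2 cells (middle) and in day 14 cells (right), with circles and triangles for the first and second set of titles of the Id2 cells. Spearman's rho was -0.33, 0.25 and 0.74 from left to right.

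In the 60 Id2 cells under 1000 CPM of microglia markers the median sum of the 34 genes was 1145 CPM, against 17.2 CPM in 57 such GFP cells, and 31 of the 34 genes were at least 2-fold higher. In the 21 Id2 cells under 10 CPM of these markers, a limit chosen after seeing the data, the median was 625 CPM, against 15.7 CPM in 32 such GFP cells. There 22 genes were higher and 8 lower, 19 at least 2-fold higher and 2 at least 2-fold lower, with a median log2 ratio of 1.89. Ifit1 stood at 154 against 0.0577 CPM in those cells, Usp18 at 127.2 against 2.22 CPM, Stat2 at 102.6 against 28.6 CPM, Irf9 at 92.3 against 22.7 CPM, Irf7 at 76.4 against 0.264 CPM, and Oasl2 at 88.1 CPM against 0 reads. Pnpt1 turned to 22.4 against 37.6 CPM there. Bst2 and Cxcl10 were at 0 in these Id2 cells, and Ifitm3 at 0.0232 CPM, while the 11 Id2 cells at or above 1000 CPM held Cxcl10 at 374 CPM and Ifitm3 at 220 CPM. The median sum in those 11 cells was 3428 CPM.

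**Figure D5:**
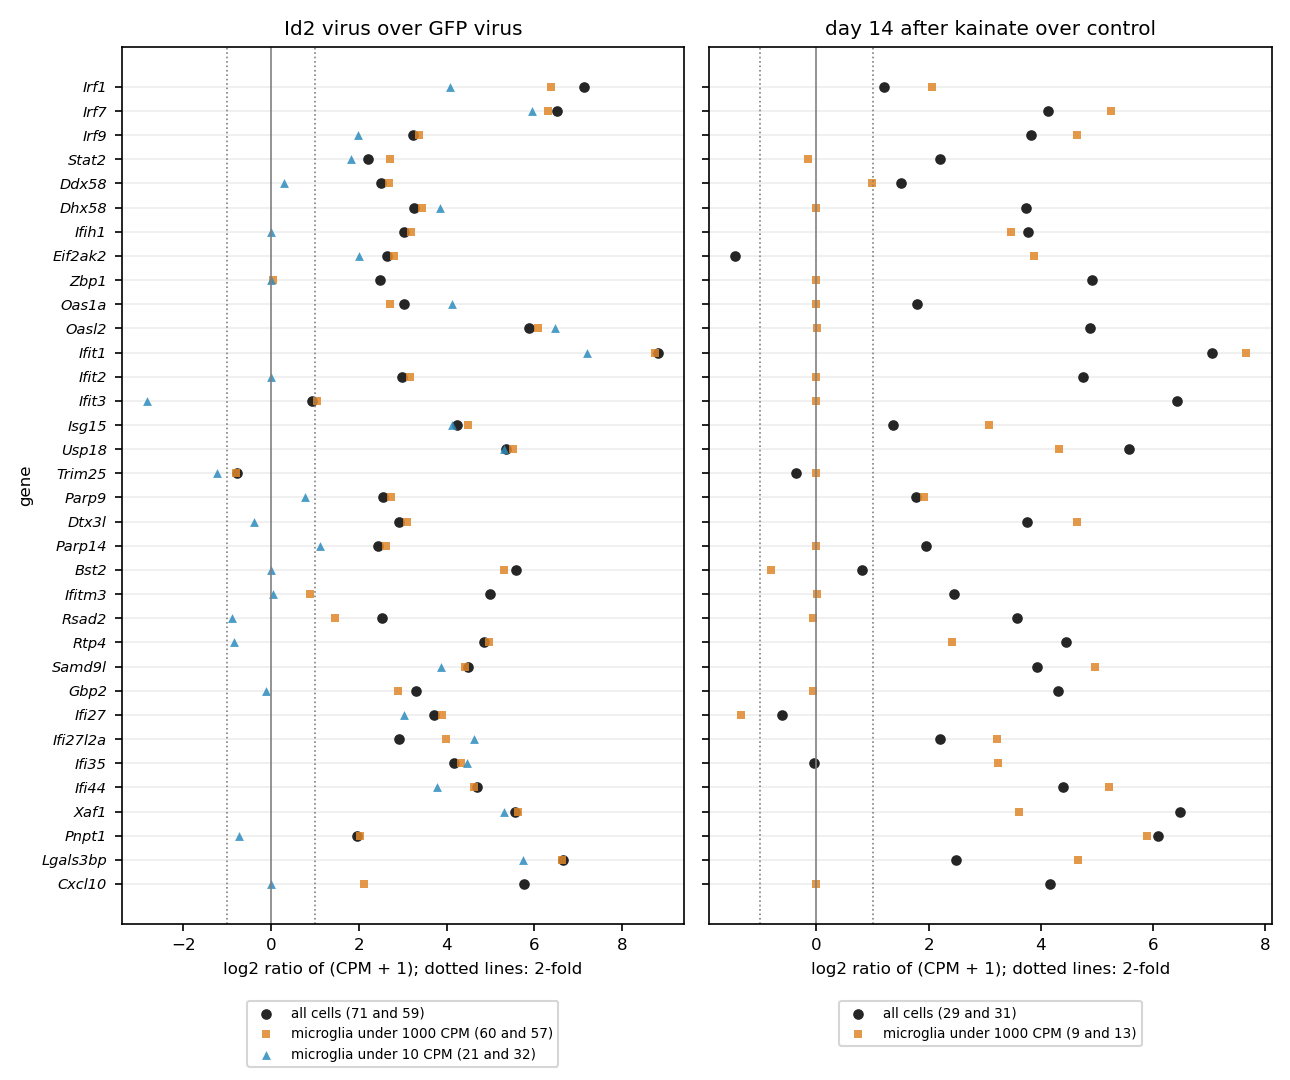
Log2 ratio of CPM (1 CPM added) of each of the 34 genes, Id2 over GFP cells (left) and day 14 over control cells (right), in all cells (black circles), in cells under 1000 CPM of microglia markers (orange squares) and, left, in cells under 10 CPM (blue triangles), with the numbers of cells under each panel and dotted lines at 2-fold. Ifit1 stays above 7 on the log2 scale in each set shown, whereas Cxcl10 is at 0 in the Id2 cells under 10 CPM and in the day 14 cells under 1000 CPM.

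Day 14 cells were compared with control cells. Of the 34 genes 30 were higher and 29 at least 2-fold higher, against 25% of the genes of any level with a read in either group, and 1 was at least 2-fold lower. The median log2 ratio was 3.74 over all 34 and 0.061 over genes of any level. Of 22 measured members 20 were past the fold upward and 0 downward, where 23.8% of all measured genes were past it upward and 15.8% downward. Of the 22, all but Irf9 and Ifit1 reached 20% of cells at day 14 alone, so this count is no support for the direction. The count over all 34 is no independent support, since the genes were chosen with earlier results of these data known. The 5 genes short of 2-fold higher were Bst2 (42.2 against 23.5 CPM), Ifi35 (33.9 against 34.97 CPM), Ifi27 (4.43 against 7.29 CPM), Trim25 (5.21 against 6.94 CPM) and Eif2ak2 (11.01 against 31.9 CPM). For Ifi35, Ifi27, Trim25 and Eif2ak2 the control level came from 1 to 3 cells. A single control cell held 99.8% of the control reads of Ifi27.

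All 4 transcription factors were higher at day 14. Irf7 stood at 410 CPM (407.7 to 412.6) against 22.5 CPM (21.4 to 23.7), 18.2-fold higher, with single day 14 cells from 0 over 19.6 to 1889 CPM and single control cells from 0 over 0 to 631 CPM. Irf9 stood at 140.1 against 8.99 CPM, 15.6-fold higher, with reads in 22 of 29 day 14 cells and 7 of 31 control cells. Its day 14 cells ran from 0 over 58.04 to 798 CPM, and its control cells from 0 over 0 to 898.5 CPM, so the ranges overlap. Stat2 stood at 80.3 against 16.6 CPM (4.83-fold) and Irf1 at 97.4 against 41.6 CPM (2.34-fold).

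Among the sensors, Oasl2, a member of the oligoadenylate synthetase family, stood at 59.2 against 1.04 CPM (56.9-fold), and Oas1a, an enzyme of that family, at 33.2 against 8.83 CPM (3.77-fold). Ddx58, which encodes RIG-I, stood at 20.6 against 6.62 CPM (3.11-fold). Ifih1, which encodes MDA5, stood at 12.6 CPM in 6 cells against 0 reads (at least 281.9-fold). Zbp1, a sensor of left-handed nucleic acid that can start necroptosis, stood at 29.9 CPM in 7 cells against 2 control reads, a ratio of 1005 with a counting interval of 278 to 8296. Ifit1 stood at 153.9 against 0.164 CPM (940-fold), with 9 day 14 cells at 10 CPM or more and 1 control cell at 12.4 CPM. Ifit3 stood at 86.1 CPM in 6 cells against 1 control read, a ratio of 5787 with an interval of 1039 to 228586.

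Isg15 stood at 33.8 against 12.4 CPM (2.72-fold), in 11 day 14 cells and 1 control cell, and Usp18 at 46.2 CPM in 7 cells against 0 reads (at least 1035-fold). Ifitm3, which blocks viral entry at endosomes, stood at 225 against 40.4 CPM (5.58-fold), with reads in 16 of 29 day 14 cells and 2 of 31 control cells. Rtp4 stood at 20.8 CPM in 9 cells against 0 reads (at least 467-fold). Ifi27l2a stood at 211 against 45.1 CPM (4.69-fold), Xaf1 at 88.2 CPM in 12 cells against 0 reads (at least 1975-fold), Lgals3bp at 253.7 against 44.7 CPM (5.68-fold) and Pnpt1 at 164.2 against 1.43 CPM (114.9-fold). A single control cell held 78.1% of the 96 control reads of Pnpt1. Without it the control level was 0.324 CPM, and Pnpt1 was 507-fold higher at day 14, 143-fold at day 1 and 114.6-fold in GFP cells. Without the day 14 cell richest in each gene, Irf1 (1.97-fold) and Ddx58 (1.59-fold) dropped under the fold. Cxcl10 stood at 319 against 16.9 CPM (18.9-fold), with single cells from 0 over 0 to 2495 CPM at day 14. It was read in 14 day 14 cells and in 1 control cell.

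The levels at day 14 moved with microglia markers. Reactive myeloid markers summed to 2930 against 444 CPM in control cells, with a rho of 0.69 to the sum of the 34 genes. All 7 of the measured ones were past the fold upward, against 23.8% of all measured genes. Only Ccl3 and Ccl4 among them reached 20% of control cells, so this count is no support for the direction. Of the unmeasured markers, Lpl (12.4 against 27.5 CPM) and Itgax (0 against 0.0149 CPM) were lower at day 14. Spp1, Ms4a7 and Cybb were higher. Granule cell markers were past the fold downward in 5 of 11 measured, against 15.8% of all measured genes. The 34 genes had a median sum of 2404 CPM in the 20 day 14 cells whose microglia sum was 1000 CPM or more. It was 561 CPM in the 9 cells below. The 13 control cells under that limit had a median of 4.03 CPM, and their highest cell, at 535 CPM, overlaps the range of the 9. In that subset 21 genes were higher and 5 lower, 18 at least 2-fold higher, with a median log2 ratio of 1.99. Ifit1 (235 against 0.168 CPM), Irf7 (49.8 against 0.335 CPM), Irf9 (151.2 against 5.07 CPM), Usp18 (19.1 CPM against 0 reads) and Pnpt1 (247 against 3.19 CPM) were still higher. Cxcl10, Zbp1, Ifit3, Ifit2 and Oas1a were at 0 in those 9 day 14 cells, Ifitm3 and Oasl2 at 0.0127 CPM, and Stat2 stood at 34.9 against 38.9 CPM. Over all 29 cells the highest rho with the microglia sum belonged to Ifitm3 (0.83), Ifi27l2a (0.76) and Cxcl10 (0.72), and Ifit1 (0.10), Irf9 (-0.12) and Pnpt1 (-0.13) were near or below 0. In Id2 cells the same 3 leading genes had rho values of 0.32, 0.40 and 0.26. Only 4 day 14 cells lay under 10 CPM of microglia markers. They held Pnpt1 at 575 CPM, Irf9 at 205 CPM and Stat2 at 34.8 CPM, and Ifit1, Irf7, Isg15 and Usp18 were at 0.

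At day 1 the direction of the difference depended on the control cells used. Of the 34 genes 13 were higher and 20 lower than in control cells, 5 at least 2-fold higher and 13 at least 2-fold lower, with 23.3% and 15% of genes of any level past the fold upward and downward. The median log2 ratio was -0.12 over all 34 and 0.072 over genes of any level. With the 9 controls of other titles 27 were higher and 5 lower, 13 and 1 of them past 2-fold. With the highest cell of each group left out the counts were 17 higher and 16 lower. Per cell, the median sum was higher at day 1 (95.8 against 4.13 CPM). Among 4 measured members 2 were past the fold upward (23.2% of all measured genes) and 1 downward (15.2%). Pnpt1 stood at 46.3 against 1.43 CPM (32.4-fold), with reads in 21 of 58 day 1 and 5 of 31 control cells. Irf9 stood at 49.4 against 8.99 CPM (5.50-fold), but as a mean over cells its log2 ratio was -0.034. A single control cell, at 898.5 CPM, held 79.6% of the control reads of Irf9. Irf7 stood at 3.996 against 22.5 CPM, where 1 control cell held 99.3% of the reads. Without that cell, a choice made after seeing the data, control stood at 0.170 CPM and the log2 ratio turned to 2.09. Of the 13 genes at least 2-fold lower, the largest log2 differences were those of Ifi27l2a (1 read against 45.1 CPM), Ifi35 (0.693 against 34.97 CPM) and Ifitm3 (2.06 against 40.4 CPM). Beside these, the microglia markers were also lower at day 1, in 16 of 17 measured. In cells under 1000 CPM of these markers (50 and 13 cells) 23 of the 34 genes were higher and 6 lower at day 1, 10 and 3 of them past 2-fold.

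Against day 14, day 1 cells were lower in 33 of the 34 genes and at least 2-fold lower in the same number, against 17.2% of genes of any level. The exception was Parp9 (7.49 against 2.52 CPM), whose day 1 reads came from 1 cell. The median log2 ratio was -3.97 over all 34 and 0.012 over genes of any level. Of 22 measured members 0 were past the fold upward and 22 downward, where 16.6% and 17.4% of all measured genes were. Of the 22, all but Irf7, Irf9, Stat2 and Pnpt1 reached 20% of cells at day 14 alone, so this count too is no support for the direction. Nor is the count over all 34 independent support, given how the genes were chosen. Median depth was 6834545 reads per cell at day 1 and 7615492 at day 14. Ifit1 stood at 0.0129 CPM at day 1, 6 reads in 6 of 58 cells, and its highest cell was at 0.361 CPM, against 153.9 CPM at day 14. Isg15 stood at 0.409 against 33.8 CPM, Usp18 at 0.456 against 46.2 CPM, Ifitm3 at 2.06 against 225 CPM, and Cxcl10 at 11.2 against 319 CPM with 89.6% of the day 1 reads in 1 cell. Lgals3bp stood at 14.4 against 253.7 CPM and Bst2 at 5.57 against 42.2 CPM. Irf9 (49.4 against 140.1 CPM), Irf1 (31.2 against 97.4 CPM) and Pnpt1 (46.3 against 164.2 CPM) had the smallest log2 differences among the 22 measured members. These comparisons share cells with those before, so they are not separate support for them. In cells under 1000 CPM of microglia markers (50 and 9 cells) Zbp1, Oas1a and Ifitm3 changed sign, and 20 genes were at least 2-fold lower and 2 at least 2-fold higher at day 1.

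GFP cells were also set against control cells, which had no injection. Titles of GFP cells (IDS) and of control cells follow different numbering, so the virus and any batch behind the titles cannot be told apart. Median depth differed too (3957794 reads per GFP cell, 1738610 per control cell), as did the microglia sum (217 against 4374 CPM). Of the 34 genes 15 were higher and 17 lower in GFP cells, 5 at least 2-fold higher and 15 at least 2-fold lower, with 22.5% and 13.4% of genes of any level past the fold. The median log2 ratio was -0.015 over all 34 and 0.10 over genes of any level. Among 3 measured members Pnpt1 was past the fold upward (37.1 against 1.43 CPM, 25.97-fold) and 0 were downward, where 19.3% and 13% of all measured genes were. Irf9 stood at 18.5 against 8.99 CPM and Stat2 at 29.4 against 16.6 CPM. Lgals3bp, Ifitm3, Bst2 and Cxcl10 had 0 reads in GFP cells, against 44.7, 40.4, 23.5 and 16.9 CPM in control cells. All 17 measured microglia markers were past the fold downward in the same comparison. In cells under 1000 CPM of these markers (57 and 13 cells) 20 of the 34 genes were higher and 7 lower in GFP cells, 8 and 3 of them past 2-fold. With the 9 controls of other titles 23 were higher and 7 lower, 10 and 3 past 2-fold.

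The genes that send and carry the signal were counted from separate lists. The lists, too, were chosen with earlier results of these data known. None of the 21 interferon genes reached 5 CPM in any group. Ifnb1, the interferon that neurons and glia can both make, had 1244 reads at day 14, in 2 cells, and had 0 reads in the other groups, and Ifng had 0 reads in all 5. The receptor genes Ifnar1 (22.2 CPM in GFP and 30.5 CPM in Id2 cells) and Ifngr2 (82.96 and 89.2 CPM) were short of 2-fold between the virus groups, and only Ifngr2 counted as measured there. At day 14 Ifnar2 stood at 60.8 against 28.1 CPM in control cells and Ifngr1 at 15.7 against 1.96 CPM.

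Of 12 signalling genes 8 were measured in Id2 against GFP cells, and 4 were past the fold upward and 0 downward, against 10.2% and 12.6% of all measured genes. At day 14 against control 10 were measured, with 7 upward and 0 downward, against 23.8% and 15.8%. Jak2, a receptor kinase, stood at 103.2 against 21.05 CPM there, and Socs3, an inhibitor that the response induces, at 101.7 against 17.1 CPM. Of 12 genes that act upstream of interferon, 2 were measured in Id2 against GFP cells, and Traf6, an adaptor of Toll-like receptors, was lower (9.11 against 48.8 CPM). At day 14 against control 5 were measured, 0 past the fold upward and 4 downward (15.8% of all measured genes). Among them was Myd88 (38.1 against 80.4 CPM), although reads of it were found in 9 day 14 cells and 3 control cells. The other 3, too, were read in a larger share of day 14 cells than of control cells.

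A further list, also chosen with earlier results of these data known, held 60 interferon-induced genes, 55 of them in the table. In Id2 against GFP cells 9 were measured, 6 past the fold upward (10.2% of all measured genes) and 0 downward, and the median log2 ratio of all 55 was 2.04. Irgm1, a GTPase of cell-autonomous defence, stood at 121.6 against 0.0676 CPM, Phf11d at 111.1 against 6.86 CPM and the GTPase Iigp1 at 67.9 against 2.74 CPM. At day 14 against control 25 were measured, 21 upward (23.8% of all measured genes) and 0 downward, with a median of 2.62. At day 1 against control 5 were measured, 3 upward (23.2%) and 1 downward (15.2%), with a median of 0. Per cell, the sum of this list and that of the 34 genes had a rho of 0.59 over Id2 cells and 0.84 over day 14 cells.

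The members also moved with each other from cell to cell. In Id2 cells the rho of a member with the sum of the other 33 was above 0 for 33 of 34 genes, with a median of 0.23 and a highest value of 0.62 for Ifit1, followed by Irf7 (0.52), Isg15 (0.47) and Ifi44 (0.45). Ifi27 was the one below 0 (-0.08). At day 14 it was above 0 for 33 of 34 with a median of 0.44, highest for Ifitm3 (0.77) and Ifi27l2a (0.74), with Pnpt1 below 0 (-0.12) and Ifit1 at 0.27. It was above 0 for 18 of 27 genes with a read in GFP cells (median 0.062), for 20 of 25 in control cells (median 0.20) and for 24 of 30 at day 1 (median 0.115). The median in Id2 cells was thus close to that in control cells. Cells share their depth and total among all genes, and these values are descriptions without a p. The share of all genes with such a rho above 0 is not given here, so the counts cannot be read as particular to the members.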

How the data were processed

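Cytosol of single granule cells was taken by patch pipette and libraries were made with Nextera XT, per the labels. Trimmomatic, STAR, featureCounts and GRCm38 are named in the submitters' processing notes, without versions; the strand setting of the counting, like other parameters, was not given in the sources used here. Deposited by the authors were counts (whole reads per gene and cell, 22800 genes, 291 cells) and a scaled signal (the same counts times 1 factor per cell, 0.187 to 287, 252 cells); the table names point the other way, so units were settled on the values. All levels rest on the counts, with the scaled signal tried as an alternative.

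Groups came from the labels. Cells labelled as passing quality control were used (248 in 5 groups); 13 of 304 labelled samples had no column and were not used here. Counts were summed per group (CPM), and log2 ratios were taken after adding 1 CPM. No animal is named, so no test across cells was made. A member was described singly where it was measured, past 2-fold and read in at least 20% of the cells of the higher group; up to 4 genes of each other list were named by size of ratio. Folds are CPM ratios without the added 1 CPM, and a group with 0 reads was given a floor of 3 reads over the group. Reads carry no molecular identifiers named in the labels. The members and lists were chosen with earlier results of these data known. Tools were Python 3.11.15, pandas 2.3.3, scipy 1.17.1 and, for scaling factors, R 4.3.3 with edgeR 4.0.16 and DESeq2 1.42.0. The ratio step was tested on simulated data. Alternatives covered the group level, scaling, pseudocount, filter, cells left out, titles and controls; leaving out the cell richest in a gene was chosen after seeing the data.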

Additional observations from a re-analysis of the deposited data

Results flagged for a closer look

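Cells labelled as failing quality control were outside the main comparisons. In 16 failed Id2 cells the summed level of the 34 genes was 1731 CPM, with a median cell at 46.3 CPM and a highest at 8502 CPM, against 5.34 CPM in 7 failed GFP cells. Ifit1 stood at 352 CPM over the 16 failed Id2 cells together, with reads in 3 of them.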

How the results depend on the processing

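For Id2 against GFP the count of 11 measured members past the fold upward was 32 without the filter on low levels and 7 in cells under 10 CPM of microglia markers, a limit chosen after seeing the data; Pnpt1 turned to -0.72 there. For day 14 against control the upward count of 20 was 7 with microglia-rich cells (1000 CPM or more of the markers) left out, where Stat2 turned to -0.15, and the downward count of 0 was 1 without the filter. For day 1 against day 14 the downward count of 22 was 7 without those cells, where Zbp1 (0.058), Oas1a (0.91) and Ifitm3 (1.03) turned, and the upward count of 0 was 1 without the filter. For day 1 against control the upward count of 2 was 1 as a mean over cells, in thinned cells, with the scaled signal and with GFP cells as control, and 5 without the filter; the downward count of 1 was 0 in thinned cells, without the highest cell of each group, with failed cells added and with controls of other titles, 2 with J-titled controls and 13 without the filter. Irf9 turned there to -0.034 as a mean over cells, -0.028 in thinned cells and -0.34 with the scaled signal. For GFP against control the upward count of 1 was 2 with a pseudocount of 0.1 CPM, without microglia-rich cells, with failed cells added and with either set of controls, and 5 without the filter; the downward count of 0 was 15 without the filter and 1 with J-titled controls. The rho of the members' sum with microglia markers in Id2 cells (0.25) was 0.59 in the first title set and -0.10 in the second. The cause of these shifts was not tested. TMM and DESeq2 factors changed none of these counts by over 1.5 times. No paired analysis was possible because the labels give no replicate numbers and no animals.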
